A study of Homo sapiens with 6 samples.

Results

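Kinetochore, centromere and spindle checkpoint genes were followed by RNA sequencing in OVCAR8, an established cell line from a human ovarian carcinoma. The genes were 45 listed by name and picked by symbol out of 62700 annotated genes, and all 45 had enough counts to be tested among 15685 genes. There were 3 libraries of cells given leptin, the adipocyte hormone, at 100 ng/ml for 24 h, and 3 libraries of cells given PBS (Control). All cells had first been kept without serum overnight and were labelled wild type. All libraries come from 1 cell line. Whether the replicates are separate cultures is not stated, so each p-value reflects library-to-library spread alone, and that spread may be technical.

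The kinetochore is the protein structure that ties a chromosome to spindle microtubules. Its base is centromeric chromatin marked by the histone H3 variant CENP-A, and on it sits a network of CENP proteins that stays at the centromere through the cell cycle. Around mitosis the KMN network, which binds microtubules, and the spindle checkpoint proteins, which hold back anaphase until chromosomes are attached, assemble on that base. Transcripts of many of these proteins are known to peak in late cell cycle phases, so their level in a culture depends on how many cells are dividing. In bulk RNA, fewer dividing cells and less RNA per dividing cell cannot be told apart. The 45 genes were sorted by role into 15 constitutive centromere genes, 23 outer kinetochore and checkpoint genes and 6 inner centromere genes of the passenger complex and the shugoshins. CENPJ, named as a centromere protein but known to act at centrioles, was kept apart.

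Total counts per library lay between 15609425 and 18577775. The line's epithelial and ovarian markers were partly present: 6 of 8 reached 1 CPM (counts scaled to TMM-adjusted library size) in both groups, PAX8 and KRT8 among them, while MUC16 and CDH1 were below it. Of the 6, KRT19, a keratin of simple epithelia, fell to 38.7 ± 0.967 CPM in Leptin libraries, against 102 ± 9.63 CPM in Control libraries (SD, n = 3 each; log2 fold change -1.40 ± 0.11, edgeR adjusted p = 0.000139). Of 5 immune markers none reached 1 CPM in either group and 3 were at 0 in both. The summed level of 4 endothelial markers was 1.74 to 2.998 CPM in Leptin and 3.16 to 3.98 CPM in Control libraries, and that of 5 fibroblast markers was 355 to 511 CPM in Leptin and 456 to 649 CPM in Control libraries. Nearly all of the fibroblast sum was COL1A1, at 352 to 506 CPM in Leptin and 451 to 645 CPM in Control libraries. PDGFRB averaged 2.07 CPM in Leptin and 0.900 CPM in Control libraries (edgeR adjusted p = 0.0684). DCN went the other way, averaging 0.237 CPM in Leptin and 1.06 CPM in Control libraries (edgeR adjusted p = 0.0658). LUM was lower as well, averaging 0.983 CPM in Leptin and 2.004 CPM in Control libraries (edgeR adjusted p = 0.215). The part of these markers in the results was not tested. Leptin replicate 1 did not lie with Leptin replicates 2 and 3. It was at -2.15 on the first principal component of all tested genes, against 46.3 and 39.6 for Leptin replicates 2 and 3. The Control libraries were at -31.0 to -23.6. On the second component Leptin replicate 1 lay outside all other libraries, at -40.0 against -6.13 to 19.6. The median SD of log2 CPM was 0.24 among Leptin and 0.12 among Control libraries. Results are therefore also given without Leptin replicate 1.

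Transcripts of the machinery were lower with leptin across most of its parts. Of the 45 genes, 25 fell and 0 rose when tested with edgeR (quasi-likelihood, Benjamini-Hochberg adjusted p under 0.05 over all tested genes), where 4.09% of all tested genes were lower and 5.71% higher, 9.81% in all. Log2 fold changes are Leptin over Control and stand with their SE. The log2 fold change was negative for 41 of the 45, with a median of -0.56, while the median over all tested genes was 0.0057. All 3 Leptin libraries lay below all 3 Control libraries for 36 of the 45 genes, a pattern found in 16.2% of tested genes, and above them for 1 gene, MAD1L1, a pattern found in 16.0%. By class, 7 of 15 constitutive centromere genes, 16 of 23 outer kinetochore and checkpoint genes and 2 of 6 inner centromere genes fell. The members were listed with earlier results of these data known, so these counts describe the list and do not test it.

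**Figure D1:**
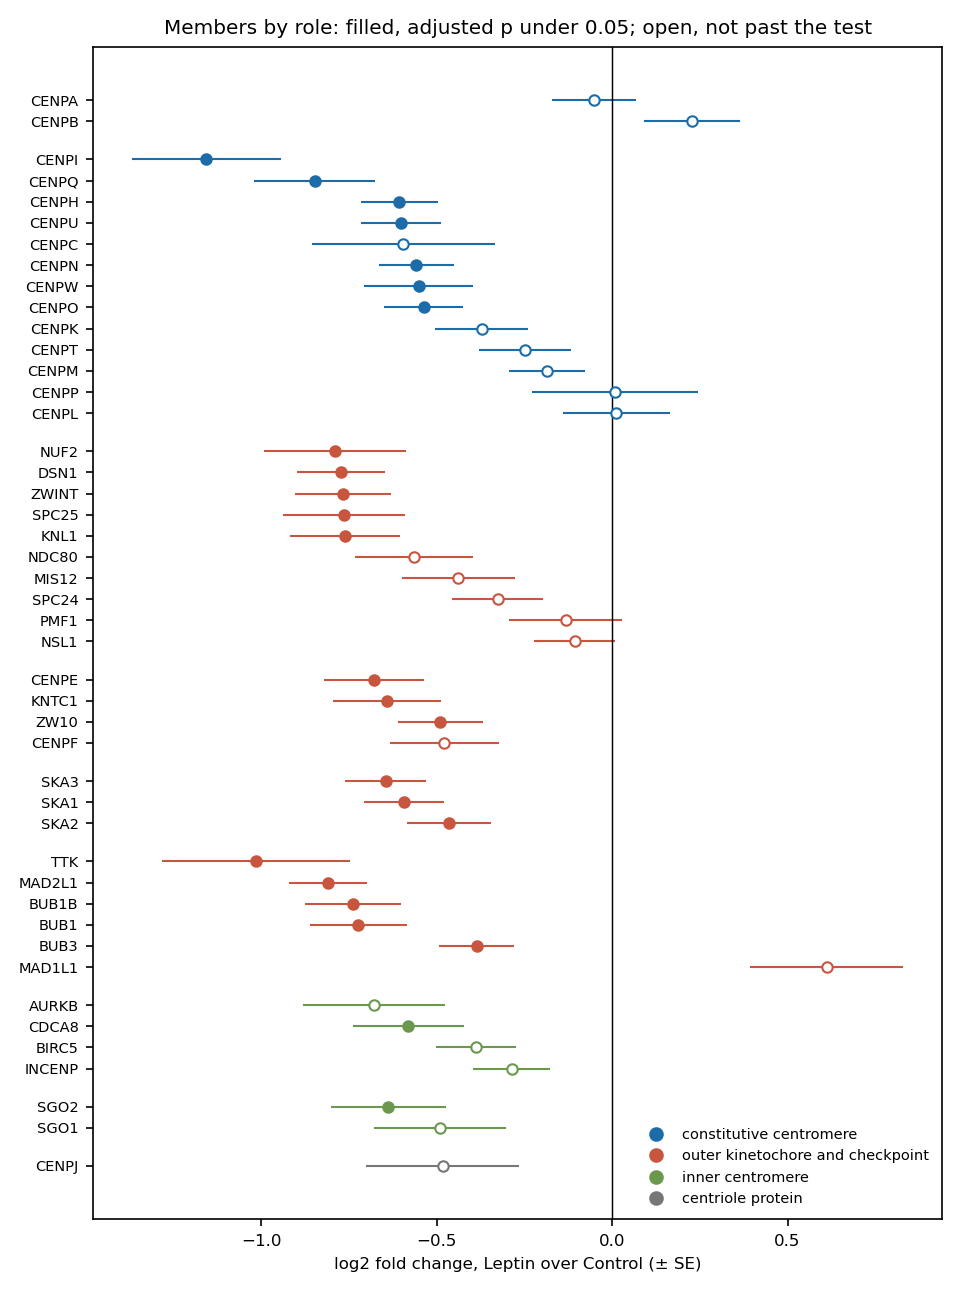
Log2 fold change (Leptin over Control, horizontal axis) with its SE for each of the 45 genes, grouped by role from centromeric chromatin at the top to CENPJ at the bottom. Filled points passed edgeR's test at an adjusted p under 0.05. The 25 filled points all lie left of 0, and MAD1L1, an open point, lies farthest to the right at 0.61.

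The size of these counts depended on which libraries entered. Without Leptin replicate 1, 35 members were lower and 2 (CENPB and MAD1L1) higher, in a fit where 13.5% of tested genes were lower and 16.0% higher. The lower members numbered 14 without Leptin replicate 2 and 5 without Leptin replicate 3, where 2.32% and 0.748% of tested genes were lower. Without Control replicate 1 or Control replicate 3 there was 1 lower gene, MAD2L1, and without Control replicate 2 there were 10. In these 3 fits, leaving out Control replicates 1, 2 and 3 in turn, 0.371%, 0.946% and 0.548% of tested genes were lower. MAD2L1 was the only one of the 25 called members to pass in all 6 leave-outs. The call of every other called member was lost at least without Control replicate 1 and without Control replicate 3. For CENPW, NUF2, SPC25, KNTC1, ZW10, SKA2, TTK, BUB3, CDCA8 and SGO2 the only leave-out that kept the call was the one without Leptin replicate 1. Class medians of log2 fold change moved less than calls. Over the leave-outs they stayed between -0.56 and -0.40 for constitutive centromere genes and between -0.73 and -0.56 for outer kinetochore and checkpoint genes. For inner centromere genes the median ran from -0.71 to -0.44. Some single members ranged widely, such as TTK (-1.50 to -0.82) and CENPC (-1.04 to -0.41). Others ranged little, such as CENPH (-0.65 to -0.57).

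Fold changes in these libraries also followed GC content. The rank correlation (Spearman's rho) of log2 fold change with transcript GC content was 0.39 across 15249 tested genes and 0.46 across the 45 members, a description over genes that share the same libraries. The members are GC-poor, with a median GC content of 41.7%, against 48.4% over all tested genes. With each library's GC trend removed, 19 members were lower and 0 higher, where 2.82% of all tested genes were lower and 2.72% higher. These were 7 constitutive, 8 outer kinetochore and checkpoint and 4 inner centromere genes, and the rho across members was 0.15. Of these, 6, 8 and 1 had also fallen before the trend was removed. CENPM, AURKB, INCENP and BIRC5 were lower here and had not passed before, and the other earlier calls were lost. The contribution of GC content to single members was not tested beyond this fit.

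**Figure D2:**
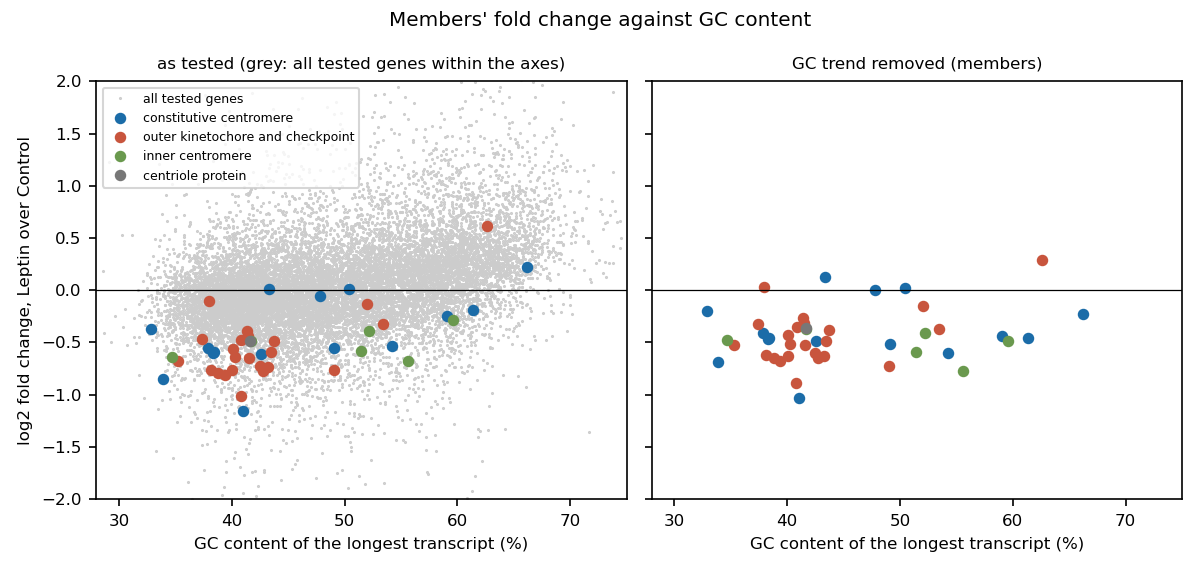
Log2 fold change (Leptin over Control, vertical axis) against GC content of the longest transcript in percent (horizontal axis), as tested on the left and with each library's GC trend removed on the right. Small grey points, on the left, are all tested genes that lie within the axes, and large points are the members by class. Most members lie below 0 in both panels, and MAD1L1, at 62.6% GC, lies highest in both.

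Promoter sequence was looked at because members of several complexes moved together. Late cell cycle genes often carry a short element near their start, the cell cycle genes homology region, which MuvB complexes bind, and CCAAT boxes, which NF-Y binds. RefSeq windows from 250 bases before to 50 bases after the start (GRCh38.p14) were found for 36 of the 45 genes, and not for CENPH, CENPL, CENPM, KNL1, KNTC1, BUB3, TTK, BIRC5 and CENPJ. The letters TTTGAA or TTCGAA, on either strand, stood in 19 of 36 member windows (52.8%) and in 16.6% of 27305 RefSeq promoters. Within 50 bases of the start they stood in 17 member windows (47.2%) and in 5.05% of all promoters. CCAAT on either strand stood in 22 member windows (61.1%) and in 35.7% of all promoters. The element's letters were in 13 of 20 windows of genes that fell and in 6 of 16 windows of genes that did not pass. For CCAAT these counts were 12 of 20 (60%) and 10 of 16 (62.5%). Whether either motif goes with the calls was not tested. By class the element's letters were in 5 of 12 constitutive, 11 of 19 outer kinetochore and checkpoint and 3 of 5 inner centromere windows. CCAAT was in 7, 10 and 5 of these windows. A match is a run of letters and not a measured binding site. The stretches below show the match in up to 4 genes per class with the smallest adjusted p among those with a match near the start. They are written 5′ to 3′ on the gene's strand with the element's letters in capitals, and were picked after their values were seen. CENPA, SGO1 and INCENP did not pass the test and the others fell.
CENPN (chr16:81007200-81007239, plus strand): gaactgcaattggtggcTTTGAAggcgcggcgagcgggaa
CENPO (chr2:24793444-24793474, plus strand): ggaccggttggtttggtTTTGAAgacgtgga
CENPW (chr6:126340115-126340154, plus strand): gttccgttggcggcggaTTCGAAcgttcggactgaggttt
CENPA (chr2:26786021-26786060, plus strand): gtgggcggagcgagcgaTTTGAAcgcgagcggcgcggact
MAD2L1 (chr4:120066802-120066841, minus strand): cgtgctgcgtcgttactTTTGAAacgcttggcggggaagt
SKA3 (chr13:21176533-21176572, minus strand): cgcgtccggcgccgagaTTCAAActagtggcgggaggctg
ZWINT (chr10:56361268-56361307, minus strand): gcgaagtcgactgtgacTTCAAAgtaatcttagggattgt
BUB1B (chr15:40161029-40161068, plus strand): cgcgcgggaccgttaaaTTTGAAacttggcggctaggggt
CDCA8 (chr1:37692476-37692515, plus strand): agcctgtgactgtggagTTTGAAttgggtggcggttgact
SGO1 (chr3:20186187-20186226, minus strand): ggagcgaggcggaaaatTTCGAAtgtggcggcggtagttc
INCENP (chr11:62123984-62124023, plus strand): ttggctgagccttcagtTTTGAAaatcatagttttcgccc

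In these stretches the match begins between 31 bases before the start, in ZWINT, and 37 bases after it, in CENPO. The letters read forward on the gene's strand except in SKA3 and ZWINT, where they read TTCAAA. The gene of lowest adjusted p in the KMN network, the checkpoint and the passenger complex, and the constitutive genes with a window at both ends of the range of adjusted p, are shown whole. Matches on either strand are in capitals, and in CDCA8 the letters of TTTGAA and of a reversed CCAAT overlap.
DSN1 (chr20:36773714-36774013, minus strand): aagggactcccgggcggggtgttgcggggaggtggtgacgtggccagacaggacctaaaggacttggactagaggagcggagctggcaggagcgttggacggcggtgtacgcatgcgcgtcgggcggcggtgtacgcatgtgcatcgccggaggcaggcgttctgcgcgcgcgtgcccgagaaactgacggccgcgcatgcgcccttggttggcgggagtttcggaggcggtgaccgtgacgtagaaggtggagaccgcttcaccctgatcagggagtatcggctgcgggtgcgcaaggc
MAD2L1 (chr4:120066799-120067098, minus strand): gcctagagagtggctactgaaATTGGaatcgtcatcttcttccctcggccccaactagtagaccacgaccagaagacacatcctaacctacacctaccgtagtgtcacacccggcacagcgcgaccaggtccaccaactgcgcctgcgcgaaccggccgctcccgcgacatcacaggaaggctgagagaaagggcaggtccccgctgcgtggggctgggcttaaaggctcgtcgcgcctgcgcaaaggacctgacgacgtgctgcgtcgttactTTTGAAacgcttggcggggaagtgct
CDCA8 (chr1:37692266-37692565, plus strand): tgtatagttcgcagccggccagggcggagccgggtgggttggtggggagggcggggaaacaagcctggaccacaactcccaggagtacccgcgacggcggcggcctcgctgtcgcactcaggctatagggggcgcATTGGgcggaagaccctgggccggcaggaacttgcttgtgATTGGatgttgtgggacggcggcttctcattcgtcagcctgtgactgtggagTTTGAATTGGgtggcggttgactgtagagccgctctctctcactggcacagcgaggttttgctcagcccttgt
CENPI (chrX:101100808-101101107, plus strand): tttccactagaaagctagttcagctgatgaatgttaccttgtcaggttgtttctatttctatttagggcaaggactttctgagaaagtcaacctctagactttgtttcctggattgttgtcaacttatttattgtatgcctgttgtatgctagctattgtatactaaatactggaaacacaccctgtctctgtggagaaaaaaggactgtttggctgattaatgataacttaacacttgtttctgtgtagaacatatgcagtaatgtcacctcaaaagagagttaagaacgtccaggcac
CENPP (chr9:92325218-92325517, plus strand): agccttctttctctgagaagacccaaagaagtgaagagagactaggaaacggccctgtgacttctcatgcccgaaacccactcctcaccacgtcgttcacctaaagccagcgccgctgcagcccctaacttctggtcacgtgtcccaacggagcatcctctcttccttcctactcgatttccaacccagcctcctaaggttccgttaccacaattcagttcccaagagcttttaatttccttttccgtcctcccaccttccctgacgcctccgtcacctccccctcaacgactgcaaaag

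Neither the DSN1 window nor the CENPI and CENPP windows hold any of these letters, and of these genes DSN1 and CENPI fell. The CENPI window lies inside the gene as the count tables annotate it, downstream of its first annotated base, and the CENPP window ends before the first annotated base, so the windows need not be the promoters used in these cells.

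The centromere's own chromatin proteins did not pass the test. CENPA (chr2:26764289-26801067, plus strand), the histone variant that marks the centromere, had 33.9, 33.6 and 41.8 CPM in the Leptin libraries, against 37.7, 38.02 and 37.6 CPM in the Control libraries (log2 fold change -0.051 ± 0.12, edgeR adjusted p = 0.821). Its Leptin libraries lay on both sides of the tightly grouped Control libraries, and its sign turned with the GC trend removed (0.0067). CENPB, which binds the CENP-B box of centromeric satellite DNA, had 715, 985 and 924 CPM in the Leptin libraries, against 734, 780.3 and 726 CPM in the Control libraries (log2 fold change 0.23 ± 0.14, edgeR adjusted p = 0.309). CENPB was above every Control library in Leptin replicates 2 and 3 and below them in Leptin replicate 1. Without Leptin replicate 1 it was higher (edgeR adjusted p = 0.0120). With the GC trend removed the sign turned, at -0.23 (edgeR adjusted p = 0.224).

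In the constitutive centromere network, 7 of 13 genes fell and the median log2 fold change was -0.55. CENPI (chrX:101098188-101166126, plus strand), a subunit of the group formed with CENPH, CENPK and CENPM, had the lowest fold change of all 45 genes. It had 26.2, 15.97 and 13.4 CPM in the Leptin libraries, against 44.4, 36.1 and 43.4 CPM in the Control libraries (log2 fold change -1.16 ± 0.21, edgeR adjusted p = 0.0105), with Leptin replicate 1 between the other Leptin libraries and the Control libraries. CENPH stood at 26.2, 27.3 and 27.4 CPM in the Leptin libraries, against 41.4, 38.5 and 43.3 CPM in the Control libraries (log2 fold change -0.61 ± 0.11, edgeR adjusted p = 0.00966), and here the 3 Leptin libraries were close to each other and well below every Control library. CENPU, which helps to bring the kinase PLK1 to kinetochores, had 23.1, 20.5 and 22.4 CPM in the Leptin libraries, against 32.3, 34.8 and 33.2 CPM in the Control libraries (log2 fold change -0.60 ± 0.11, edgeR adjusted p = 0.0122). CENPN, which reads the CENP-A nucleosome together with CENPL, had 33.6, 32.8 and 34.9 CPM in the Leptin libraries, against 50.5, 46.03 and 52.5 CPM in the Control libraries (log2 fold change -0.56 ± 0.11, edgeR adjusted p = 0.0127). For both genes each Leptin library lay below each Control library. CENPP, a partner of CENPO, CENPQ and CENPU, stood at 4.38, 8.09 and 6.18 CPM in the Leptin libraries, against 6.80, 5.78 and 5.88 CPM in the Control libraries (log2 fold change 0.0081 ± 0.24, edgeR adjusted p = 0.989), with full overlap of the groups. Its sign was negative with upper quartile scaling, limma-voom and the replicate block, and 43.2% of its exon bases are shared with other genes, mainly IPPK on the opposite strand, where read pairs were not counted.

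Each of the known sub-assemblies of the network held genes on both sides of the test, and differences between partners were not tested. In the CENPH, CENPI, CENPK and CENPM group, CENPK and CENPM did not pass (log2 fold changes -0.37 and -0.19; edgeR adjusted p = 0.0977 and 0.292), although all their Leptin libraries lay below all their Control libraries. With the GC trend removed CENPM was lower (edgeR adjusted p = 0.0218). With CENPN lower, its partner CENPL was at 0.012 (edgeR adjusted p = 0.972). CENPO (-0.54) and CENPQ (-0.85) fell like CENPU (edgeR adjusted p = 0.0166 and 0.0155), while CENPP did not pass. Of the histone-fold pair CENPW fell (-0.55, edgeR adjusted p = 0.0471, and 0.147 with the GC trend removed) and CENPT did not pass (-0.25, edgeR adjusted p = 0.252). CENPC, the scaffold that links CENP-A chromatin to the MIS12 complex, had 13.1, 6.28 and 6.53 CPM in the Leptin libraries, against 11.9, 14.8 and 12.6 CPM in the Control libraries (log2 fold change -0.59 ± 0.26, edgeR adjusted p = 0.164). Leptin replicate 1 lay within the Control range and the other 2 Leptin libraries near 6 CPM, and without Leptin replicate 1 CENPC was lower (edgeR adjusted p = 0.000360). Without that library 9 of the 13 network genes were lower. Exon bases shared with other genes made up 31.6% in CENPO, 23.1% in CENPN, 20.2% in CENPT and 14.9% in CENPU. The highest leave-out adjusted p by edgeR lay between 0.0756 for CENPI (without Control replicate 1) and 0.200 for CENPW (without Control replicate 1) among the 7 genes that fell.

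**Figure D3:**
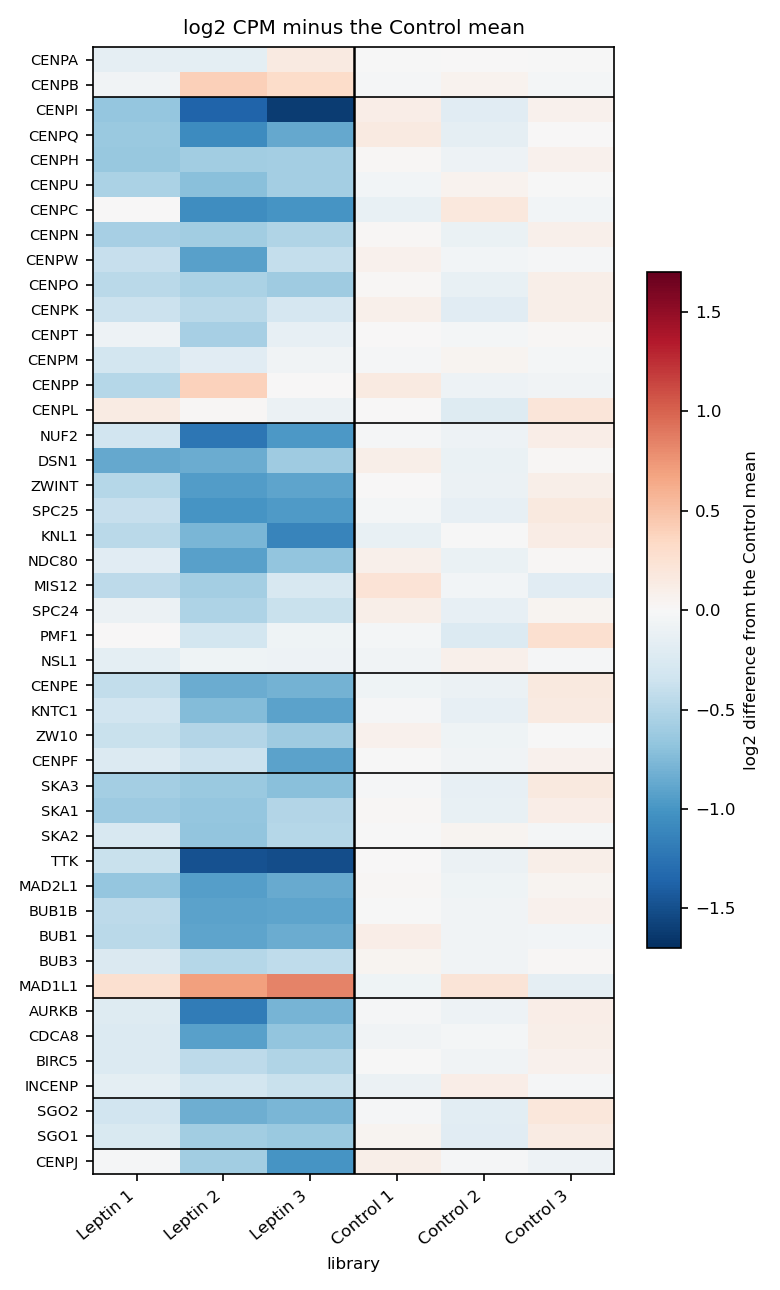
Log2 CPM minus the mean of the Control libraries for each member (rows, in role order as separated by lines) in each library (columns, Leptin replicates 1 to 3 and then Control replicates 1 to 3). Blue is lower and red is higher than the Control mean. CENPH, CENPN, DSN1 and SKA1 are similarly blue in all 3 Leptin columns, while TTK, CENPI, CENPC and AURKB are paler in Leptin replicate 1.

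In the KMN network, the microtubule-binding core of the outer kinetochore, 5 of 10 genes fell, with a median log2 fold change of -0.66 and no positive value among the 10. DSN1 (chr20:36751791-36773818, minus strand), a subunit of the MIS12 complex that docks on the centromere, had 19.6, 20.05 and 23.7 CPM in the Leptin libraries, against 38.4, 33.2 and 36.5 CPM in the Control libraries (log2 fold change -0.77 ± 0.13, edgeR adjusted p = 0.00669). ZWINT, which binds KNL1, had 60.1, 43.4 and 45.01 CPM in the Leptin libraries, against 84.3, 78.4 and 89.8 CPM in the Control libraries (log2 fold change -0.77 ± 0.14, edgeR adjusted p = 0.00953). The groups did not overlap for either gene. KNL1, the scaffold on which the checkpoint kinases and BUB proteins gather, had 54.2, 43.4 and 34.3 CPM in the Leptin libraries, against 68.4, 73.98 and 81.2 CPM in the Control libraries (log2 fold change -0.76 ± 0.16, edgeR adjusted p = 0.0156). SPC25 of the NDC80 complex had 21.7, 14.2 and 14.6 CPM in the Leptin libraries, against 27.8, 25.9 and 32.1 CPM in the Control libraries (log2 fold change -0.76 ± 0.17, edgeR adjusted p = 0.0229), and again every Leptin library lay below every Control library.

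Subunits of the same KMN complex stood on both sides of the test. In the NDC80 complex NUF2 fell (log2 fold change -0.79, edgeR adjusted p = 0.0346), while NDC80 (-0.56) and SPC24 (-0.33) did not pass (edgeR adjusted p = 0.0578 and 0.132). In the MIS12 complex DSN1 was the gene that fell. MIS12 (-0.44), NSL1 (-0.11) and PMF1 (-0.13) did not pass (edgeR adjusted p = 0.106, 0.596 and 0.636), and NSL1 turned positive with the GC trend removed (0.033). PMF1 had 18.3, 14.7 and 17.4 CPM in the Leptin libraries, against 17.8, 15.5 and 22.02 CPM in the Control libraries, with overlap of the groups and leave-out fold changes from -0.24 to 0.013, and 23.3% of its exon bases are shared with the readthrough gene PMF1-BGLAP. Whether these subunits differ from each other was not tested. Without Leptin replicate 1, 7 of the 10 genes were lower. Among the 5 that fell, the highest leave-out adjusted p by edgeR ranged from 0.0653 for DSN1 (without Control replicate 1) to 0.151 for NUF2 (without Control replicate 3), and SPC25 and NUF2 did not pass with the GC trend removed (edgeR adjusted p = 0.0561 and 0.0830).

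Of the 4 genes of the fibrous corona, the outermost layer that forms on unattached kinetochores, 3 fell. CENPE, a kinesin that moves chromosomes to the spindle equator, had 31.3, 23.1 and 23.9 CPM in the Leptin libraries, against 39.8, 38.9 and 46.7 CPM in the Control libraries (log2 fold change -0.68 ± 0.14, edgeR adjusted p = 0.0170). KNTC1, which encodes the ROD subunit of the RZZ complex that recruits dynein and MAD1, had 37.99, 28.7 and 25.4 CPM in the Leptin libraries, against 47.03, 43.4 and 53.2 CPM in the Control libraries (log2 fold change -0.64 ± 0.15, edgeR adjusted p = 0.0273). ZW10, another RZZ subunit, had 21.8, 20.1 and 18.6 CPM in the Leptin libraries, against 29.7, 26.96 and 28.3 CPM in the Control libraries (log2 fold change -0.49 ± 0.12, edgeR adjusted p = 0.0307). These 3 genes fell, with no overlap between the groups. CENPF, a large protein that binds dynein regulators, did not pass at 129, 119 and 80.9 CPM in the Leptin libraries, against 151, 147 and 160.0 CPM in the Control libraries (log2 fold change -0.48 ± 0.16, edgeR adjusted p = 0.0752). CENPF reached 80.9 CPM in Leptin replicate 3 and lay nearer to Control in the other 2 Leptin libraries. All 4 were lower without Leptin replicate 1, and the 3 calls were lost with the GC trend removed (edgeR adjusted p = 0.0546 for CENPE, 0.0708 for KNTC1 and 0.0762 for ZW10) and without Control replicate 3 (CENPE 0.111, KNTC1 0.146) or Control replicate 1 (ZW10 0.166).

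All 3 subunits of the SKA complex, which helps kinetochores hold on to depolymerizing microtubules, fell. SKA3 had 39.8, 38.4 and 36.2 CPM in the Leptin libraries, against 58.6, 53.9 and 66.4 CPM in the Control libraries (log2 fold change -0.65 ± 0.11, edgeR adjusted p = 0.00931). SKA1 had 29.98, 29 and 32.5 CPM in the Leptin libraries, against 46.4, 41.99 and 49.6 CPM in the Control libraries (log2 fold change -0.59 ± 0.11, edgeR adjusted p = 0.0127). SKA2 had 75.4, 56.9 and 65.2 CPM in the Leptin libraries, against 90.3, 93.9 and 88.6 CPM in the Control libraries (log2 fold change -0.47 ± 0.12, edgeR adjusted p = 0.0356). In SKA1 and SKA3 the Leptin libraries were nearly level with each other, whereas in SKA2 Leptin replicate 1 stayed closest to Control. SKA2 lost its call with the GC trend removed (edgeR adjusted p = 0.138). The highest leave-out adjusted p by edgeR was 0.0938 for SKA1 and 0.0772 for SKA3, both without Control replicate 3, and 0.153 for SKA2 without Control replicate 1.

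Among the 6 spindle checkpoint genes, 5 fell and MAD1L1 stood out in the other direction without passing. MAD2L1 (chr4:120055623-120066858, minus strand), whose product MAD2 binds and holds CDC20, had 54.3, 44.6 and 47.2 CPM in the Leptin libraries, against 86.7, 81.4 and 88.2 CPM in the Control libraries. Its mean was 48.7 ± 4.98 CPM with leptin, against 85.4 ± 3.59 CPM in Control libraries (SD, n = 3 each). MAD2L1 had the smallest adjusted p of the 45 genes (log2 fold change -0.81 ± 0.11, edgeR adjusted p = 0.00386), a transcript level lower by 43.0%. Over the 6 leave-outs its log2 fold change stayed between -0.90 and -0.75, and its edgeR adjusted p reached 0.0464 at most, without Control replicate 1. With the GC trend removed it was -0.68 (edgeR adjusted p = 0.00851). Of the 45 genes, MAD2L1 was thus the member whose call held in every leave-out.

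BUB1B, which encodes the checkpoint protein BUBR1, had 49.4, 35.7 and 36.1 CPM in the Leptin libraries, against 66.7, 64.4 and 71.1 CPM in the Control libraries (log2 fold change -0.74 ± 0.14, edgeR adjusted p = 0.0109). BUB1, the kinase that marks centromeric chromatin for shugoshin, had 31.9, 23.5 and 24.4 CPM in the Leptin libraries, against 47.6, 41.99 and 42.3 CPM in the Control libraries (log2 fold change -0.72 ± 0.14, edgeR adjusted p = 0.0124). TTK, the kinase MPS1 at the head of the checkpoint, had 33.2, 15.5 and 15.2 CPM in the Leptin libraries, against 43.2, 40.2 and 46.2 CPM in the Control libraries (log2 fold change -1.02 ± 0.27, edgeR adjusted p = 0.0441). For all 3 genes Leptin replicate 1 lay between the other Leptin libraries and the Control libraries, most of all for TTK, where its log2 level was 1.11 above the mean of the other 2 Leptin libraries. BUB3, the partner of BUB1 and BUBR1, fell as well (log2 fold change -0.39 ± 0.11, edgeR adjusted p = 0.0445). The highest leave-out adjusted p by edgeR was 0.0789 for BUB1B, 0.142 for TTK (both without Control replicate 3), 0.0941 for BUB1 and 0.207 for BUB3 (both without Control replicate 1). TTK and BUB3 did not pass with the GC trend removed (edgeR adjusted p = 0.0859 and 0.150).

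MAD1L1, whose product MAD1 carries MAD2 to unattached kinetochores, had 5.59, 7.55 and 8.31 CPM in the Leptin libraries, against 4.43, 5.40 and 4.20 CPM in the Control libraries (log2 fold change 0.61 ± 0.22, edgeR adjusted p = 0.0961). Every Leptin library lay above every Control library. Without Leptin replicate 1 it was higher (edgeR adjusted p = 0.0116), and with the GC trend removed it stood at 0.29 (edgeR adjusted p = 0.405). MAD1L1 had 97 to 140 counts per Leptin library. Of its exon bases, 43.2% are shared with an unnamed gene on the same strand, and read pairs there were not counted for either gene. It is also GC-rich, at 62.6%, where MAD2L1 has 39.4%.

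**Figure D4:**
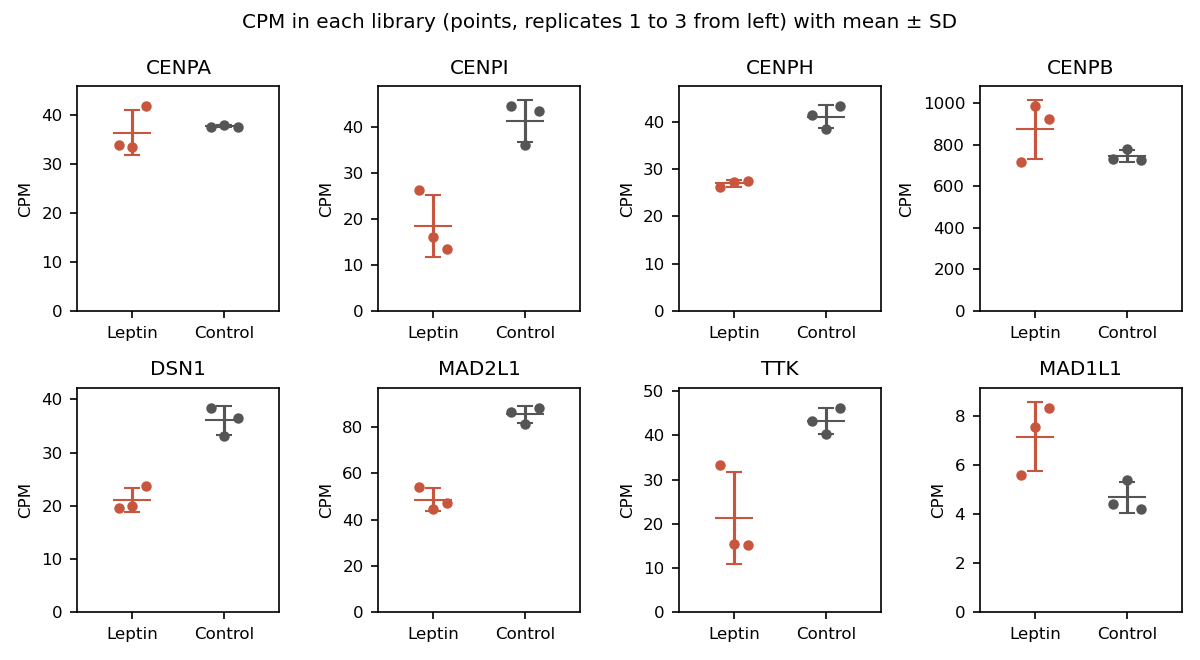
CPM (vertical axes, from 0) of 8 members in each Leptin library (left in each panel) and each Control library (right), with the mean and SD (n = 3 each). CENPA and CENPB overlap between the groups, CENPH, CENPI, DSN1, MAD2L1 and TTK are separated downward, and MAD1L1 is separated upward at under 10 CPM.

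Inner centromere genes showed the same direction with fewer calls. The chromosomal passenger complex corrects wrong attachments through the kinase AURKB, held by INCENP, survivin (BIRC5) and borealin (CDCA8). CDCA8 had 94.8, 58.5 and 70.01 CPM in the Leptin libraries, against 107, 108 and 119 CPM in the Control libraries (log2 fold change -0.58 ± 0.16, edgeR adjusted p = 0.0427). AURKB had 83.5, 42.4 and 55.8 CPM in the Leptin libraries, against 95.6, 90.8 and 104 CPM in the Control libraries (log2 fold change -0.68 ± 0.20, edgeR adjusted p = 0.0578), with Leptin replicate 1 close to the Control libraries and Leptin replicates 2 and 3 far below them. BIRC5 had 244, 211 and 201 CPM in the Leptin libraries, against 284, 274 and 300.4 CPM in the Control libraries (log2 fold change -0.39 ± 0.11, edgeR adjusted p = 0.0539). INCENP had 162, 147 and 140.0 CPM in the Leptin libraries, against 170.5, 197 and 179.7 CPM in the Control libraries (log2 fold change -0.29 ± 0.11, edgeR adjusted p = 0.121). All 4 had every Leptin library below every Control library, and CDCA8 was the one that passed. Without Leptin replicate 1 all 4 were lower (edgeR adjusted p = 4.09e-05 for CDCA8, 1.97e-05 for AURKB, 0.00113 for BIRC5 and 0.0106 for INCENP). With the GC trend removed all 4 were lower as well (edgeR adjusted p between 0.0281 for INCENP and 0.0476 for BIRC5). The call of CDCA8 held in 1 of the 6 leave-outs, the one without Leptin replicate 1. Its highest leave-out adjusted p by edgeR was 0.185, without Control replicate 3.

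The shugoshins protect cohesin at the centromere. SGO2 had 21.7, 15.3 and 15.9 CPM in the Leptin libraries, against 26.9, 24.2 and 31.2 CPM in the Control libraries (log2 fold change -0.64 ± 0.16, edgeR adjusted p = 0.0344), and it did not pass with the GC trend removed or without Control replicate 3 (edgeR adjusted p = 0.102 and 0.175). SGO1 had 7.38, 5.88 and 5.70 CPM in the Leptin libraries, against 9.17, 7.70 and 9.78 CPM in the Control libraries (log2 fold change -0.49 ± 0.19, edgeR adjusted p = 0.118). Neither gene overlapped between the groups, and SGO1 did not pass, at 88 to 128 counts per Leptin library. 15.8% of its exon bases are shared with the antisense gene SGO1-AS1. CENPJ, the centriole gene, had 15.7, 10.6 and 7.96 CPM in the Leptin libraries, against 17.1, 15.8 and 15 CPM in the Control libraries (log2 fold change -0.48 ± 0.22, edgeR adjusted p = 0.175), with Leptin replicate 1 inside the Control range, and it was lower without that library (edgeR adjusted p = 0.00181).

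The comparison of constitutive centromere genes with outer kinetochore and checkpoint genes gave a small difference of medians. The median log2 fold change was -0.64 over the 23 outer kinetochore and checkpoint genes and -0.54 over the 15 constitutive genes, a difference of -0.10. In Leptin replicates 1, 2 and 3, measured against the Control mean, the outer median was -0.38, -0.73 and -0.71 and the constitutive median -0.39, -0.57 and -0.41. The difference of these medians was thus 0.011, -0.17 and -0.30 in the 3 Leptin libraries, and it lay between -0.025 and 0.061 in the Control libraries. The SD of the per-library difference over the Leptin libraries was 0.16, which describes single libraries and is not an error of the -0.10. The difference of -0.10 between the medians of fold changes ranged from -0.21 to -0.073 over the 6 leave-outs. It was -0.17 without Leptin replicate 1 and -0.056 with the GC trend removed. It was not tested. Shares of called genes were 16 of 23 and 7 of 15, and they became 8 of 23 and 7 of 15 with the GC trend removed, and 12 of 23 and 7 of 15 with the GC trend removed and a replicate block. The gap between the classes in calls thus moved with the fit.

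Leptin replicate 1 often lay above the other Leptin libraries. It had the highest level of the 3 Leptin libraries for 18 of 23 outer kinetochore and checkpoint genes, 6 of 6 inner centromere genes and 8 of 15 constitutive genes. The median distance of Leptin replicate 1 above the mean of the other 2 Leptin libraries was 0.36, 0.41 and 0.11 for these classes on the log2 scale. Within the constitutive class, CENPC and CENPI were farther apart (1.04 and 0.84), while CENPH and CENPN were level (-0.060 and -0.0089). These distances rest on 1 library and have no test. The same counts were not taken over all tested genes, so they are not shown to be particular to these classes. On the first principal component of all tested genes, Leptin replicate 1 was at -2.15. That is between the Control libraries and Leptin replicates 2 and 3 (46.3 and 39.6). On the second component it lay outside all other libraries, at -40.0 against -6.13 to 19.6.

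**Figure D5:**
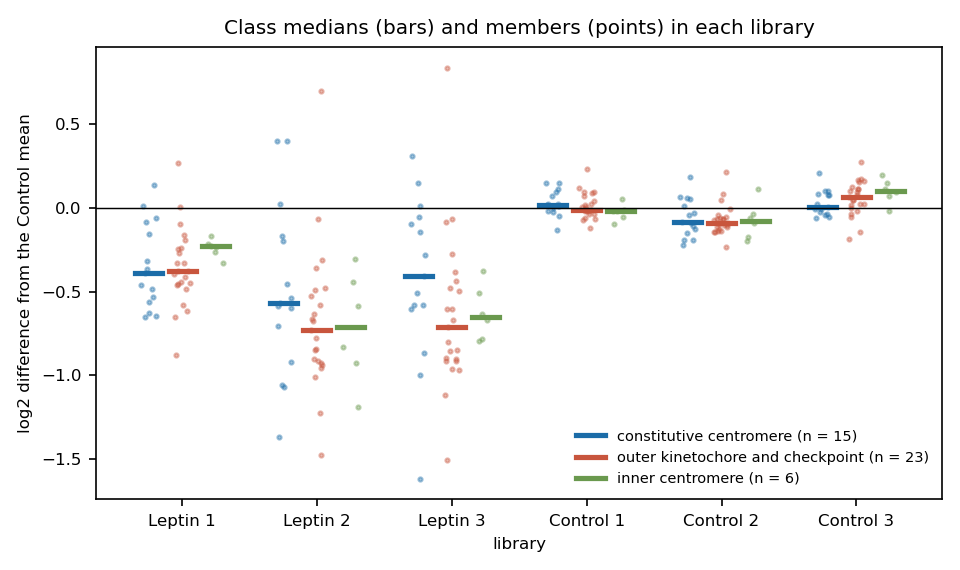
Log2 difference from the Control mean (vertical axis) of each member (points) and of each class median (bars) in the 3 Leptin and the 3 Control libraries. The class medians lie close together in Leptin replicate 1 for constitutive and outer genes, and the outer median lies below the constitutive one in Leptin replicates 2 and 3.

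Levels between genes were compared per kilobase of annotated exon, a scale on which genes with many annotated exons come out low. CENPB was the most abundant member, at 303 ± 48.9 CPM per kb with leptin and 258 ± 10.1 CPM per kb in Control libraries. In Control libraries the passenger genes came next, with BIRC5 at 57.3 ± 5.86 CPM per kb with leptin and 74.97 ± 3.51 CPM per kb in Control libraries and CDCA8 at 30.9 ± 7.71 CPM per kb with leptin and 46.3 ± 2.70 CPM per kb in Control libraries. Within the NDC80 complex SPC24 was the highest, at 19.7 ± 3.03 CPM per kb with leptin and 24.7 ± 2.09 CPM per kb in Control libraries, and NUF2 the lowest, at 4.22 ± 1.41 CPM per kb with leptin and 7.31 ± 0.527 CPM per kb in Control libraries. CENPP, with a large share of its exon bases in other genes, was the lowest, at 0.667 ± 0.199 CPM per kb with leptin and 0.661 ± 0.0605 CPM per kb in Control libraries.

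Related genes were listed by role in the same pathway, 47 in all. Of these, 12 fell and 0 rose, where 4.09% of all tested genes were lower and 5.71% higher. The median log2 fold change of the related genes was -0.21. Their group means are given with the SD (n = 3 each). Among the genes of CENP-A deposition HJURP, the CENP-A chaperone, fell to 45.3 ± 11.4 CPM with leptin, against 70.8 ± 6.35 CPM in Control libraries (log2 fold change -0.64 ± 0.16, edgeR adjusted p = 0.0320). CENPA itself, as given above, did not pass. Of 6 checkpoint regulators, TRIP13, the ATPase that remodels MAD2, fell to 41.3 ± 5.18 CPM with leptin, against 75.7 ± 6.28 CPM in Control libraries (log2 fold change -0.87 ± 0.12, edgeR adjusted p = 0.00407), and it was the only one of the 12 to pass in all 6 leave-outs. CDC20, the checkpoint's target, fell to 284 ± 48.5 CPM with leptin, against 446 ± 30.1 CPM in Control libraries (log2 fold change -0.65 ± 0.14, edgeR adjusted p = 0.0173), and PLK1 was the other one to fall. Of 6 corona partners, SPDL1 (Spindly, a dynein adaptor) and ZWILCH, of the RZZ complex, fell (-0.57 and -0.54; edgeR adjusted p = 0.0137 and 0.0245), as did KIF2C.

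The anaphase-promoting complex is the ubiquitin ligase that the checkpoint restrains. Of 17 of its subunits and partner enzymes 1 fell, the E2 enzyme gene UBE2C (log2 fold change -0.71 ± 0.18, edgeR adjusted p = 0.0310). That count is near the share of 4.09% lower over all tested genes. The median log2 fold change of the 17 was 0.0047. CDC23, the next gene by adjusted p, did not pass (log2 fold change -0.41 ± 0.12, edgeR adjusted p = 0.0515). Of 11 genes of cohesion and its release 3 fell, the cohesin genes RAD21 (-0.68, edgeR adjusted p = 0.00605) and SMC1A (-0.64, edgeR adjusted p = 0.0143), and PTTG1, which encodes securin. Of 3 other centromere network subunits 0 passed, with ITGB3BP at -0.56 and CENPX at 0.14 (edgeR adjusted p = 0.0708 and 0.566). With the GC trend removed 10 related genes were lower, where 2.82% of all tested genes were lower. In that fit ZWILCH and PTTG1 did not pass (edgeR adjusted p = 0.0687 and 0.0567). Without Leptin replicate 1, 19 related genes were lower and 1 higher, in a fit where 13.5% of tested genes were lower and 16.0% higher. Over all 6 leave-outs the count of related genes lower ranged from 1, without Control replicate 1, to 19.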

How the data were processed

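RNA of OVCAR8 cells was sequenced as 3 Leptin and 3 Control libraries, with a directional kit and paired ends per the labels. The deposited values are raw counts of read pairs per gene. Per the file headers, the authors counted with featureCounts 2.0.1 over the exons of GENCODE 44 and set no strand, so read pairs over exons of more than 1 gene were left out, which lowers the counts of overlapping genes. Named in the submitters' processing notes are hg38, HISAT2 2.0.5, featureCounts 1.5.0-p3 and DESeq2. All 62700 gene IDs had a symbol.

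Groups were compared with edgeR 4.0.16 in R 4.3.3 (filterByExpr with a minimum count of 10, TMM scaling, robust quasi-likelihood fit without a replicate block, Benjamini-Hochberg adjustment over 15685 genes, threshold 0.05). The SE of a fold change was derived from its size and its quasi-likelihood F value. Alternatives were DESeq2 1.42.0, limma-voom (limma 3.58.1), other scalings and filters, a stricter threshold, a replicate block, removing the GC trend of each library with lowess (span 0.3, GC content of the longest GENCODE 29 transcript) and leaving out each library. In simulated counts for this comparison, over 15301 genes, edgeR called 73 of 94 genes changed 2-fold, 92 of 96 changed 4-fold and 9 of 15111 unchanged ones. The simulation gave each gene the same spread in both groups and held no deviating library and no GC trend. These rates therefore need not hold for the libraries here.

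The members, their classes, the related genes and the motifs were chosen with earlier results of these data known. Values in every library were given, within each role, for up to 4 members with the smallest adjusted p and the one with the largest, and CENPC was added after its values were seen. Up to 2 related genes per role were named with values, and PLK1, KIF2C and PTTG1, beyond that rule, were added after their values were seen. 1 gene that this rule picks is not reported here. Within groups, libraries differed beyond counting noise. Chi-square values per gene were 5.24 to 5.61 between Control libraries and 19.2 to 45.4 between Leptin libraries. Each library was kept as its own sample. Gene coordinates are those of the count tables (hg38). Figures were drawn with matplotlib 3.10.9.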

Additional observations from a re-analysis of the deposited data

How the results depend on the processing

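Calls at an adjusted p under 0.05 were the fragile part of these results, while class medians of log2 fold change moved less. With a threshold of 0.01, 1 constitutive, 4 outer kinetochore and checkpoint and 0 inner centromere genes were lower (edgeR; 2 inner centromere genes at 0.05), with 3 related genes lower and 148 higher and 126 lower over all tested genes. Inner centromere genes lower numbered 4 with no filter on low counts, 4 with DESeq2 and 4 with the GC trend removed, and outer kinetochore and checkpoint genes lower numbered 8 with the GC trend removed. Over all tested genes 642 were lower as reported, 959 with no filter, 897 with DESeq2 and 442 with the GC trend removed. The counts of genes higher were 896 as reported, 1478 with no filter, 1353 with DESeq2 and 426 with the GC trend removed. The fit with the GC trend removed and a replicate block gave 477 lower and 465 higher over all tested genes. In the leave-outs of 1 library, genes lower ranged from 0 to 9 for constitutive, 1 to 19 for outer, 0 to 6 for inner centromere and 1 to 19 for related genes. Members higher ranged from 0 to 2 and related genes higher from 0 to 1. Over all tested genes, 60 to 2178 were lower and 55 to 2583 higher. The constitutive median ranged from -0.56 to -0.40, lowest without Leptin replicate 1, and was -0.43 without Leptin replicate 3.

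The sign turned in 4 of the members named with values in every library. CENPA was at 0.0067 with the GC trend removed and ranged from -0.17 to 0.0014 in the leave-outs. CENPB, at 0.23 as reported, was at -0.23 with the GC trend removed, with and without the block. CENPP was at -0.0091 with upper quartile scaling, -0.048 with limma-voom, -0.022 with the block and -0.0058 with the GC trend removed and the block, and ranged from -0.23 to 0.20 in the leave-outs. PMF1 ranged from -0.24 to 0.013 in the leave-outs. The cause was not tested.

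With the replicate number as a block, 7 constitutive, 15 outer, 3 inner centromere and 11 related genes were lower, and 535 lower and 768 higher over all tested genes. Same-numbered libraries did not deviate together (correlations of -0.049, 0.015 and -0.11 for numbers 1, 2 and 3), so the numbers were not taken as pairs. CENPP, CENPQ, SGO1 and MAD1L1 had at most 145 counts in any Leptin library, which limits their precision.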
